A study of Homo sapiens with 6 samples.

Results

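The structural genes of the proteasome were examined in RCC4 cells, an established line derived from a clear cell carcinoma of the human kidney that lacks functional VHL. The set held 40 of the 61541 genes in the count tables, taken by gene symbol. It covered the alpha ring and the non-catalytic beta subunits of the 20S core and 18 subunits of the 19S cap. The factors that assemble both, and the remaining activators and the inhibitor of the core, were also in it. The 3 catalytic beta subunits and their cytokine-inducible counterparts were kept apart and are given for comparison. RNA from 3 untreated cultures was set against RNA from 3 cultures that had received interferon gamma (IFNγ) at 1000 U/mL and tumour necrosis factor (TNF) at 25 ng/mL for 24 h. Poly(A) RNA was read as native molecules by direct RNA nanopore sequencing. Each replicate was pooled from 3 flasks and is labelled a biological replicate of the 1 line, so the spread between replicates is that between cultures of a single line. The labels name no vehicle for the untreated cells and no arm with either cytokine alone.

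The 26S proteasome is the protease that removes proteins tagged with ubiquitin. Its 20S core is a barrel of stacked rings: outer alpha rings that gate the entry, and inner beta rings that hold the active sites. The 19S cap binds the tagged protein, removes the ubiquitin, unfolds the chain with a ring of ATPases and feeds it into the core. Interferon gamma is known to induce alternative catalytic subunits, which replace the constitutive ones to form the immunoproteasome and cut peptides for display on class I molecules. The structural subunits are shared by both forms of the core. Their genes are known to be driven together by the transcription factor NFE2L1 when the proteasome is inhibited.

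Library totals ran from 3626000 to 4406296 counts, and 10067 genes passed the filter on low counts. A count of 3, the limit that a count of 0 allows, stood for 0.681 to 0.827 CPM (counts per 1000000 counts of the library; elsewhere CPM are scaled to normalised library sizes), and covers counting error only. All 10 markers fixed for renal carcinoma epithelium were detected, from EGLN3 at 6.53 to VIM at 5965 CPM on average, and 3 of them passed the test below (NNMT and VIM higher, PAX8 lower in treated cells). Of the 10 markers for blood, endothelial and stromal cells, 9 had 0 counts in every library and CD14 had 1 count in each of treated libraries 1 and 3. In bulk RNA, fewer cells of a kind and less RNA per cell cannot be told apart.

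Of the 40 structural genes, 37 could be tested. Most of them showed no detected difference after the cytokines: 2 rose, none fell and 35 did not pass the threshold (edgeR quasi-likelihood test, Benjamini-Hochberg adjusted p under 0.05 over all genes tested). The 2 that rose were PSMA4 and PSMA5, both of the alpha ring. They made up 5.41% of the members tested. Over all 10067 genes, 8.14% passed in either direction, 5.58% as higher and 2.55% as lower, so the share among the structural genes was not above the background. At an unadjusted p under 0.05 the members numbered 7 of 37, or 18.9%, against 19.8% of all genes. The 3 treated libraries lay wholly above the 3 untreated ones for 11 of the 37 members, against 1402 of 10067 genes (13.9%). They lay wholly below for 1 of the 37, against 1206 of 10067 genes (12.0%). Both directions together came to 32.4% of the members and 25.9% of all genes.

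The fold changes were small. Their median over the 37 members was 0.11 on the log2 scale, against -0.03 over all genes, and 28 members (75.7%) had a positive value, against 47.3% of all genes. Scaling by library totals alone lowered the median of all genes by 0.11 and left 22 of 37 members positive, against 37.6% of all genes, with a member median of 0.018. With offsets for GC content and length, 22 were also positive, against 41.3% of all genes, and the member median was 0.052. Without untreated library 3, 24 of 37 were positive, against 52.2% of all genes. The 95% interval lay below a log2 fold change of 1, a doubling, for 26 of the 37 members. The summed level of all 40 genes was 7978, 7904 and 5839 CPM in untreated libraries 1, 2 and 3, and 9194, 8707 and 8169 CPM in the treated ones. The sums did not overlap, and untreated library 3 stood well below the other untreated libraries.

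**Figure D1:**
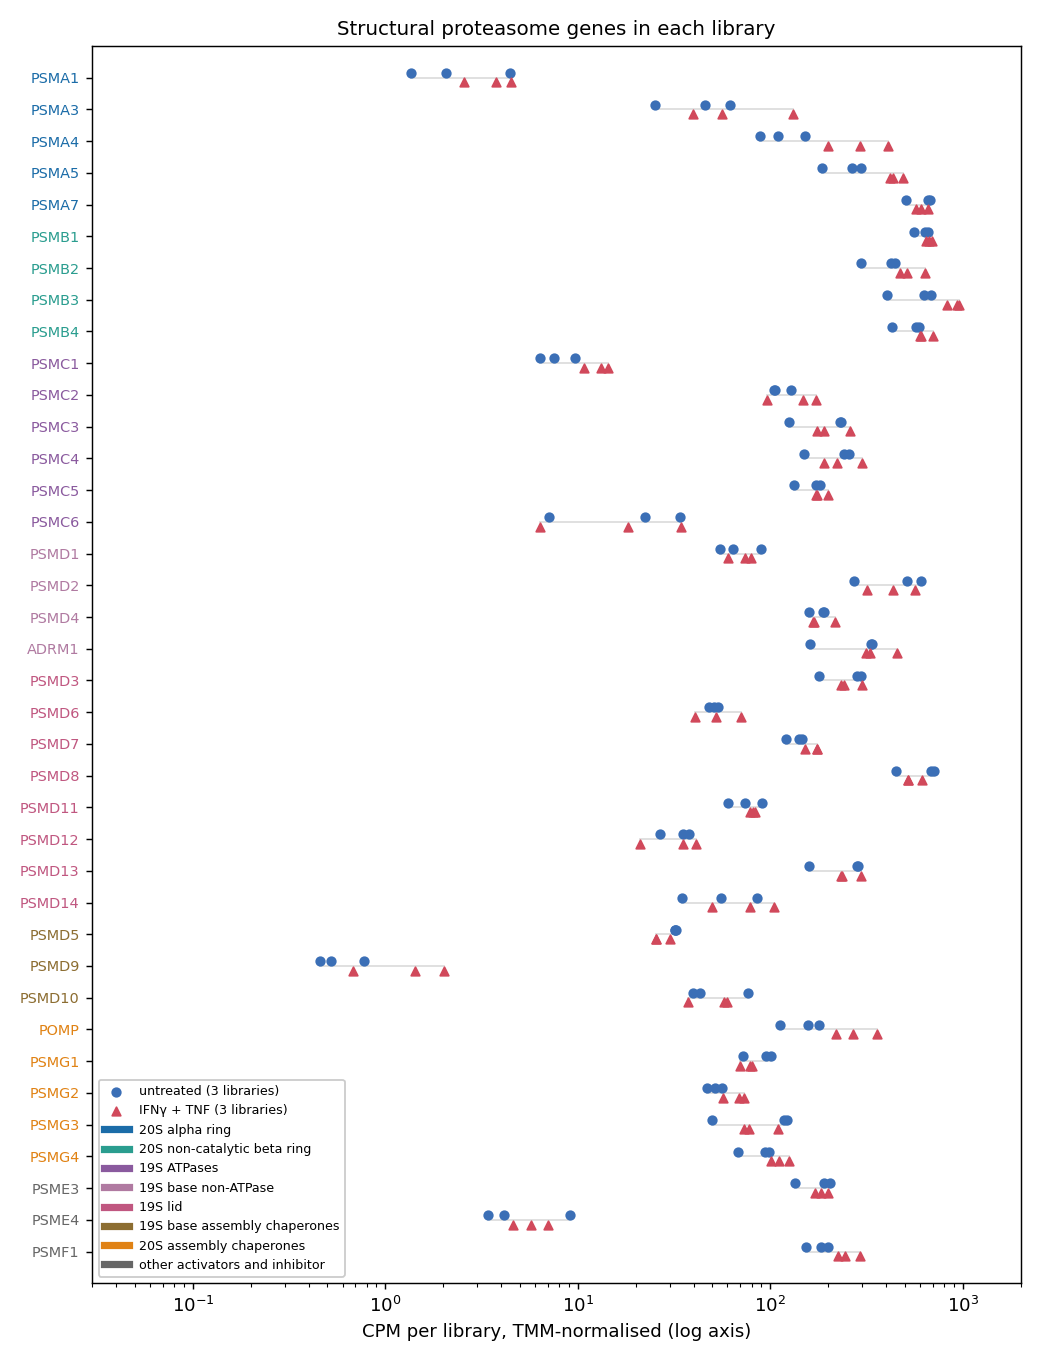
CPM of each structural gene in each of the 6 libraries (log axis), with untreated libraries as circles, treated libraries as triangles and gene names coloured by subcomplex; PSMA2 and PSMA6, with 3 counts or fewer in every library, are not drawn. The treated points of PSMA4 (199 to 409.6 CPM) and PSMA5 (417 to 491 CPM) lie to the right of all untreated points, whereas those of PSMA7 and most 19S genes overlap them.

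Sequence upstream of the start site is shown for the alpha-ring genes that passed the test and for POMP and PSMB3, the members with the next smallest p-values. The letters are those of RefSeq on GRCh38.p14, 5′ to 3′ on the strand of the gene, and cover the 250 bases before the annotated start. Capitals mark matches, on either strand, to 4 motifs: an antioxidant response element (TGACNNNGC), which NFE2L1 and related factors bind; an interferon regulatory factor site (GAAA, any 2 bases, GAAA); a kappaB site, bound by NF-kappaB; and the CCAAT box. The windows lie at chr15:78540155-78540404 (PSMA4, plus strand, 1 of its annotated starts), chr1:109426449-109426698 (PSMA5, minus strand), chr17:38752491-38752740 (PSMB3, plus strand) and chr13:28658880-28659129 (POMP, plus strand).
PSMA4: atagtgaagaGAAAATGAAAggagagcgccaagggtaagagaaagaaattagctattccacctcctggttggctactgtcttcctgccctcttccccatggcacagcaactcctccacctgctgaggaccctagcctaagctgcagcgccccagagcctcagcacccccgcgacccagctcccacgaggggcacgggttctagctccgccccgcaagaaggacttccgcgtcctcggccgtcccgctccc
PSMA5: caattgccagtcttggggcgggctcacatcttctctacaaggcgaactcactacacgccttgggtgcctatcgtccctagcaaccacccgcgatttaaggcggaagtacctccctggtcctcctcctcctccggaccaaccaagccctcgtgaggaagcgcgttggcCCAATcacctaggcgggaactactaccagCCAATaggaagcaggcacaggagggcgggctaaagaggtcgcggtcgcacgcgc
PSMB3: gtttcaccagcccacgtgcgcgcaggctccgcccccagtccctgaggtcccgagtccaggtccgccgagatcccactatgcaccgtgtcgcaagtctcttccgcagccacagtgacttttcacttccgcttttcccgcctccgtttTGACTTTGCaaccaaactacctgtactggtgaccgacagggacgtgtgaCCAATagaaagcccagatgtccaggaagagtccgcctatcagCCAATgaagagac
POMP: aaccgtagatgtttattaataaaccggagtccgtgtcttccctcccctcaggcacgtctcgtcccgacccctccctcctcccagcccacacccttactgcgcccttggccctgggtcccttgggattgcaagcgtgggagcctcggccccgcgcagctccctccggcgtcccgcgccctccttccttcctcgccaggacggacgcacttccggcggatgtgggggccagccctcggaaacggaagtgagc
The printed PSMA4 window held an interferon regulatory factor match at -240 to -231 from the start. PSMA4 has 3 windows in the table. The second held no match, and the third, which overlaps the exons of the gene and is not printed, held an antioxidant response element match at -126 to -118, overlapping kappaB matches between -62 and -52 and a CCAAT box. PSMA5 held a pair of CCAAT boxes, at -83 to -79 and at -54 to -50. PSMB3 held an antioxidant response element match at -104 to -96 and CCAAT boxes at -55 to -51 and at -13 to -9, and no match was found in the POMP window. Apart from the kappaB matches, none of these matches overlapped another. RefSeq places the POMP start downstream of the start of the gene as counted, so the last bases of that window lie within the counted gene. Across the 44 windows of the 36 members with an entry, 12 (27.3%) held the antioxidant response element letters, against 10.9% of 35116 windows of all genes. CCAAT was in 18 (40.9%) against 32.0%, the interferon regulatory factor letters in 3 (6.82%) against 3.02% and the kappaB letters in 1 (2.27%, the third PSMA4 window) against 9.96%. These are matches of letters in a fixed window and say nothing of binding.

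The alpha ring held both genes that passed. PSMA4 (ENSG00000041357, chromosome 15, 78540405 to 78552417) stood at 88.2, 109.6 and 152 CPM in the untreated libraries and at 199, 409.6 and 294 CPM in the treated ones. Every treated library was above every untreated one, and treated library 2 was the highest. PSMA4 rose 2.58-fold, with means of 117 ± 32.5 CPM without and 301 ± 105.3 CPM with the cytokines (SD, n = 3 each). On the log2 scale the estimate was 1.37 (SE 0.30, 95% interval 0.70 to 2.04), and the edgeR adjusted p was 0.0220. The adjusted p was 0.0617 with library totals, 0.0966 without untreated library 2, 0.0685 without treated library 2 and 0.0745 without treated library 3.

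PSMA5 (ENSG00000143106, chromosome 1, 109399042 to 109426448) was measured at 298, 268 and 185 CPM without and at 417, 491 and 435 CPM with the cytokines. The groups did not overlap, and untreated library 3 was the lowest of the 6. PSMA5 rose 1.79-fold, with means of 250.2 ± 58.5 CPM without and 448 ± 38.6 CPM with the cytokines (SD, n = 3 each). The log2 estimate was 0.84 (SE 0.21, 95% interval 0.37 to 1.31; edgeR adjusted p 0.0387). With offsets for GC content and length the adjusted p was 0.280. It was 0.121 without untreated library 2 and 0.0802, 0.130 and 0.119 without treated libraries 1, 2 and 3.

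PSMA7, the alpha subunit with the most counts, was at 677, 662 and 509 CPM without and 658, 576 and 609 CPM with the cytokines. The treated values lay within the untreated range, and the log2 fold change was -0.00 (SE 0.17, 95% interval -0.39 to 0.38; edgeR adjusted p 0.997). The sign of that value changed with the setting, and its values ran from -0.13 to 0.093. PSMA3 was at 25.1, 46.0 and 62.2 CPM in untreated and 39.9, 131 and 55.9 CPM in treated libraries. Its groups overlapped and 1 treated library was far above the rest. The log2 fold change of PSMA3 was 0.77 (SE 0.46, edgeR adjusted p 0.427), and it was 0.16 without treated library 2.

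The other 3 alpha-ring genes were barely counted. PSMA1 had 17, 8 and 6 counts in the untreated and 13, 20 and 9 counts in the treated libraries, which overlapped (log2 fold change 0.48, SE 0.50). PSMA2 had 0 counts in all 6 libraries, and PSMA6 had 1 count in each of treated libraries 1 and 2 and 0 in the others. All 7 alpha subunits are constituents of the standard 20S core.

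These low counts fell on genes that share exons with another gene. In the annotation used for counting, 99.1% of the principal PSMA2 transcript (1474 of 1487 bases) lay in same-strand exons of ENSG00000256646. The share was 81.0% for PSMA6 (with ENSG00000258790), 53.2% for PSMA1 (with ENSG00000256206) and 28.2% for PSMD9 (with ENSG00000256950). It was 0 for the other 36 members. Over all exon bases of each gene in the counting annotation, the shares were lower. They were 17.2% for PSMA2, 14.1% for PSMA6, 26.7% for PSMA1 and 14.9% for PSMD9. By that measure PSMC2 and PSMF1 also shared 1.30% and 1.51%. The partner genes of PSMA2, PSMA6, PSMA1 and PSMD9, which have no symbol, had 0 counts in every library. PSMA2, PSMA6, PSMD9 and PSMA1 were the 4 members with the lowest mean CPM. In the last 500 exon bases the share was 93.4% for PSMA2, 45.2% for PSMA6, 29.6% for PSMA1 and 0 for PSMD9. It was 31.2% for PSMF1, which had a mean of 217 CPM. PSMA6 also has a copy, PSMA6P1, which matched it at 97.4% identity and held 69 counts. By default the counting program leaves a read uncounted when it touches exons of more than 1 gene. The part of this, or of the copy, in the low counts was not tested. The values of PSMA2, PSMA6, PSMA1 and PSMD9 count only the reads that were assigned to them and give no level of their RNA.

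**Figure D2:**
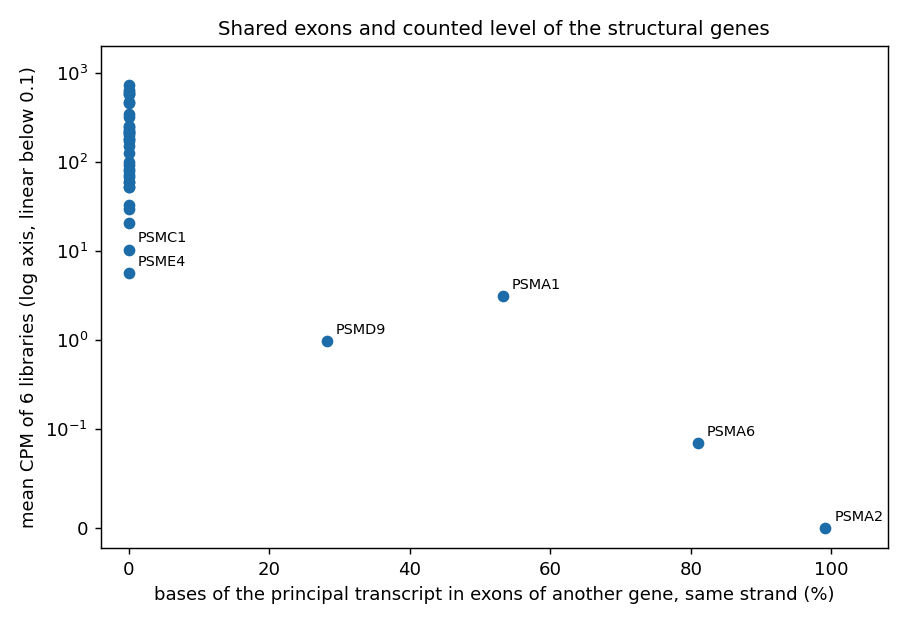
Mean CPM over the 6 libraries (y axis, logarithmic above 0.1 and linear below) against the percentage of each gene's principal transcript that lies in same-strand exons of another gene (x axis), 1 point per structural gene. The 36 genes at 0% all lie above PSMA1, PSMD9, PSMA6 and PSMA2, whose shares are 53.2%, 28.2%, 81.0% and 99.1%.

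The non-catalytic beta subunits, which complete the inner rings without cutting peptides, were among the most counted members. None of the 4 passed the test. Their log2 fold changes ran from 0.11 to 0.66 with a median of 0.37. For 3 of the 4 the treated libraries lay wholly above the untreated ones, against 13.9% of all genes. PSMB3 (ENSG00000277791, chromosome 17, 38752741 to 38764225) was at 633, 682 and 403 CPM without and 953, 828 and 930.4 CPM with the cytokines. The groups did not overlap, with untreated library 3 again the lowest. The log2 fold change of PSMB3 was 0.66 (SE 0.21, 95% interval 0.18 to 1.14), and its edgeR adjusted p was 0.111.

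PSMB2 was at 446, 423 and 297 CPM in untreated and 641, 516 and 474 CPM in treated libraries. These did not overlap, and the difference was 0.48 in log2 (SE 0.21, edgeR adjusted p 0.236). PSMB4 was at 592, 572 and 431 CPM without and 703, 609 and 599 CPM with cytokines, a narrow separation of 0.26 in log2 (SE 0.18, edgeR adjusted p 0.509). PSMB1 was at 658, 639 and 556 CPM without and 669, 692 and 645 CPM with cytokines. These values overlapped, and the log2 fold change was 0.11 (95% interval -0.23 to 0.46; edgeR adjusted p 0.791), or -0.03 with offsets for GC content and length.

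By mean CPM, the highest of the 40 genes were PSMB3 at 738, PSMB1 at 643, PSMA7 at 615, PSMD8 at 585.3 and PSMB4 at 584.2. Per kilobase of annotated exon the order differed: PSMB3 at 632, PSMA7 at 351, PSMB1 at 289.8, PSMB4 at 275 and PSMD8 at 189 CPM per kb. Native molecules were read, so counts need not rise with length, and annotated exon includes bases that a given transcript may lack. The levels per kilobase therefore give neither an order of RNA levels nor a molar ratio. Counts summed over the 11 structural 20S subunits were 3421, 3403 and 2596 CPM in untreated and 4284, 4257 and 4045 CPM in treated libraries. The treated sums were all higher, at 4195 ± 131 against 3140 ± 471 CPM (SD, n = 3 each), a ratio of 1.34. Of the 9 core subunits tested, 8 had a positive log2 fold change (47.3% of all genes had one), 4 had an unadjusted p under 0.05 (19.8% of all genes) and the median was 0.48.

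The 19S cap gave no call. None of its 18 listed subunits passed, where 8.14% of all genes did. Their median log2 fold change was 0.10, and 14 of the 18 (77.8%) had a positive value, against 47.3% of all genes. An unadjusted edgeR p under 0.05 was seen for 1 (5.56%, against 19.8% of all genes). Groups did not overlap for 2 (11.1%, against 25.9% of all genes). With 1 surrogate variable in the fit 1 subunit, PSMD14, passed, and that fit called 16.5% of all genes. For 14 of the 18 the 95% interval lay below a doubling. The summed level was 3593, 3530 and 2410 CPM without and 3762, 3250 and 3022 CPM with the cytokines. The groups overlapped, at 3178 ± 666 and 3345 ± 379 CPM (SD, n = 3 each), a ratio of 1.05. Without untreated library 3 the median was 0.05 for the cap and 0.31 for the core. Whether the core and the cap differed in their response was not tested.

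Among the ATPases that unfold the substrate, log2 fold changes ran from -0.10 for PSMC6 to 0.71 for PSMC1. PSMC6 was at 7.07, 22.5 and 34.2 CPM in untreated and 6.35, 34.5 and 18.3 CPM in treated libraries. The replicates of PSMC6 differed more from each other than the groups did, and its 95% interval of -1.51 to 1.31 holds changes of more than a doubling either way (edgeR adjusted p 0.965). PSMC2, PSMC3, PSMC4 and PSMC5 had log2 fold changes of 0.30, 0.10, 0.13 and 0.17, each with overlapping groups. Mean levels went from 113 to 139 CPM for PSMC2, from 195 to 209 CPM for PSMC3, from 217 to 237 CPM for PSMC4 and from 163 to 183 CPM for PSMC5.

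PSMC1 carried few counts: 37, 29 and 28 without and 46, 64 and 38 with the cytokines. At 9.69, 7.50 and 6.38 CPM without and 13.3, 14.4 and 10.8 CPM with cytokines the groups did not overlap, but the log2 fold change of 0.71 (SE 0.28) did not pass (edgeR adjusted p 0.198). A near-identical copy held far more: PSMC1P1 (ENSG00000241506, chromosome 3, 68635705 to 68637024), annotated as a processed pseudogene, had 802, 731 and 835 counts in untreated and 693, 1160 and 852 counts in treated cells. Its 1320 bases matched PSMC1 at 99.9% identity, and it took 95.4% of the 5315 counts of the pair. The log2 fold change of PSMC1P1 was 0.26 (SE 0.17, edgeR adjusted p 0.488). Which locus the reads came from was not tested, so the level and the change of PSMC1 are uncertain.

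The non-ATPase subunits of the base scaffold the cap and receive ubiquitin. None of the 4 passed. PSMD2, a scaffold that also docks shuttle factors, was at 610.3, 517 and 273 CPM in untreated and 563, 434 and 320.3 CPM in treated libraries, with a log2 fold change of -0.09. The untreated replicates of PSMD2 spanned the treated ones. The ubiquitin receptor ADRM1 was at 335, 338 and 162 CPM without and 458, 315 and 332 CPM with cytokines, a log2 fold change of 0.41 (SE 0.29) with overlapping groups. The other ubiquitin receptor, PSMD4, went from 179.5 ± 17.6 to 184 ± 28.3 CPM (SD, n = 3 each), and the scaffold PSMD1 from 69.7 ± 18.0 to 71.4 ± 10.0 CPM (SD, n = 3 each).

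The lid removes ubiquitin chains from the bound protein. None of its 8 listed subunits passed, with edgeR adjusted p from 0.388 to 0.973. SEM1 was not among them and was kept with the proteasome-associated factors (log2 fold change 0.12, edgeR adjusted p 0.905). PSMD14, the deubiquitinase of the lid, was at 34.8, 55.6 and 85.6 CPM without and 49.7, 105.2 and 78.4 CPM with the cytokines. These overlapped widely, at a log2 fold change of 0.41 (SE 0.36). PSMD8, the lid subunit with the highest level, was at 689, 712 and 452 CPM without and 617, 519.5 and 523 CPM with the cytokines, an overlap with a log2 fold change of -0.16 (SE 0.21). PSMD7, the partner of PSMD14, was the single lid gene without overlap, at 146, 141 and 122 CPM without and 175, 152 and 175 CPM with cytokines (log2 fold change 0.30, edgeR adjusted p 0.388).

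The remaining lid genes stayed within a narrow range. The log2 fold changes of the scaffold subunits PSMD3, PSMD6, PSMD11, PSMD12 and PSMD13 were 0.03, 0.10, 0.11, -0.04 and 0.08, and all of them had overlapping groups. PSMD11 is an example, at 75.0 ± 15.1 and 81.2 ± 2.48 CPM (SD, n = 3 each).

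Of the chaperones that assemble the base, PSMD5 was the only member whose treated libraries all lay below the untreated ones. PSMD5 was at 32.2, 32.3 and 32.1 CPM without and 30.3, 25.5 and 25.4 CPM with cytokines. The untreated values were almost equal, and the log2 fold change was -0.25 (SE 0.19, edgeR adjusted p 0.571). PSMD10, also known as gankyrin, was at 53.2 ± 20.5 and 51.6 ± 12.5 CPM (SD, n = 3 each). PSMD9 had 2, 3 and 2 counts in untreated and 7, 3 and 5 counts in treated libraries and was not tested.

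The chaperones of the 20S core gave the value nearest to the threshold. POMP (ENSG00000132963, chromosome 13, 28659104 to 28678959) encodes the maturation protein that guides the joining of the core's half-barrels and is the first protein the finished core degrades. It was at 112, 157 and 179 CPM in untreated and 221, 358 and 271 CPM in treated libraries. All treated values were above all untreated ones. The means were 149.6 ± 34.3 and 283 ± 69.3 CPM (SD, n = 3 each). The log2 estimate was 0.92 (SE 0.24, 95% interval 0.37 to 1.47; edgeR adjusted p 0.0515). The same test gave POMP an adjusted p of 0.0427 with DESeq2 size factors and 0.0415 with a stricter filter, and POMP passed under 9 of the 15 alternatives.

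The PSMG chaperones pair up to build the alpha ring. PSMG2 was at 51.8, 46.8 and 56.5 CPM without and 56.9, 73.1 and 68.7 CPM with cytokines, without overlap by a small margin (log2 fold change 0.36, edgeR adjusted p 0.347). PSMG4 was at 94.5, 98.8 and 68.1 CPM without and 126, 111 and 101 CPM with cytokines, also without overlap (log2 fold change 0.37, edgeR adjusted p 0.367). PSMG1, the partner of PSMG2, was at 102, 94.9 and 72.6 CPM without and 69.9, 80.1 and 79.0 CPM with cytokines. Its groups overlapped, and the log2 fold change was -0.23 (SE 0.19, edgeR adjusted p 0.605). PSMG3, the partner of PSMG4, was at 123, 118 and 49.9 CPM without and 110.0, 77.9 and 73.0 CPM with cytokines, at a log2 difference of -0.16 (SE 0.33) whose sign depended on untreated libraries 1 and 2. Summed over the 5 chaperones, POMP included, levels were 475.1 ± 45.3 CPM without and 625.3 ± 64.5 CPM with the cytokines (SD, n = 3 each).

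Of the other activators and the inhibitor, PSMF1 was the one without overlap. PSMF1, named for its inhibition of the core in the test tube, was at 199.8, 184 and 154 CPM in untreated and 292, 226 and 244 CPM in treated libraries. Each treated value was above each untreated value, and the log2 fold change was 0.50 (SE 0.18, 95% interval 0.09 to 0.92; edgeR adjusted p 0.155). PSME3, the nuclear PA28 activator, was at 176 ± 37.6 and 185 ± 13.5 CPM (SD, n = 3 each), and PSME4, the PA200 activator, at 5.55 ± 3.10 and 5.77 ± 1.19 CPM (SD, n = 3 each). Their log2 fold changes were 0.07 and 0.05.

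The catalytic genes of the same particle give the scale against which the structural changes can be read. PSMB8 and PSMB9, the inducible catalytic subunits, summed to 249.8, 234.5 and 219.3 CPM without and 2657, 2155 and 2264 CPM with the cytokines, a ratio of 10.1. Every treated library was far above every untreated one. PSMB8 rose by 2.79 and PSMB9 by 3.93 on the log2 scale (edgeR adjusted p 2e-05 and 5.25e-06). The PA28 genes PSME1 and PSME2 rose by 1.58 and 2.51 (edgeR adjusted p 0.000285 and 0.0130), PSME2 from few counts. The PSME2 call was lost without untreated library 2 (adjusted p 0.0703) and without treated library 1 (adjusted p 0.0510). The third inducible catalytic gene, PSMB10, had 1, 1 and 0 counts without and 6, 11 and 14 counts with cytokines and was not tested; 39.4% of its exon bases are shared with another gene.

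The constitutive catalytic genes that these replace did not pass the test. PSMB5, PSMB6 and PSMB7 had log2 fold changes of -0.19, -0.07 and 0.27 (edgeR adjusted p 0.728, 0.912 and 0.588). Their sum was 1225, 1209 and 822 CPM in untreated and 1220, 999 and 983 CPM in treated libraries, which overlapped at a ratio of 0.983.

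**Figure D3:**
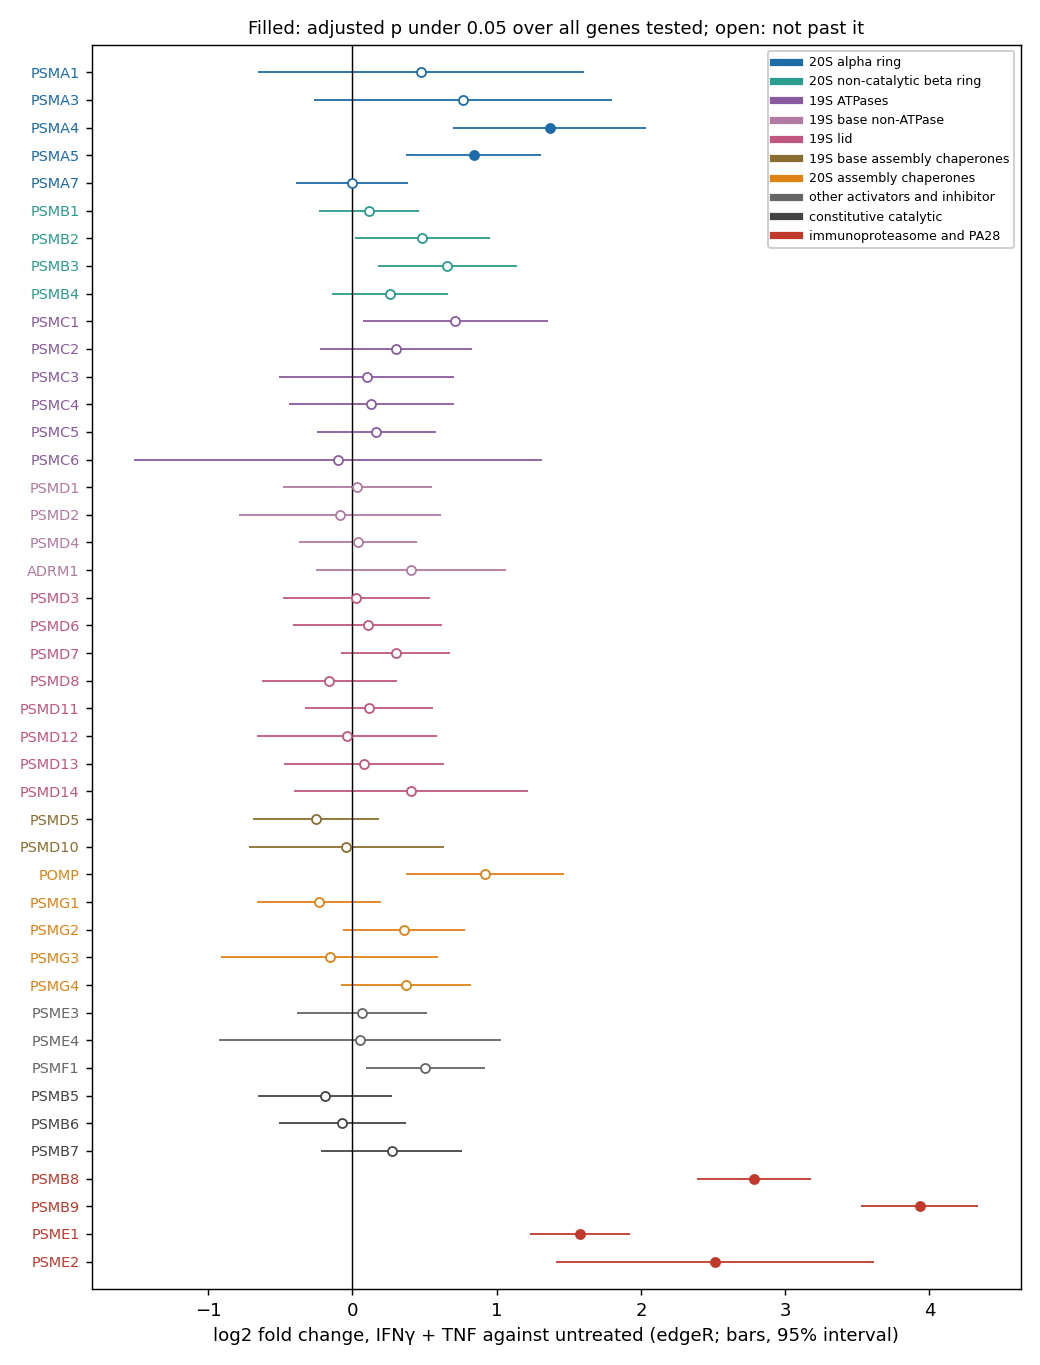
Log2 fold change of each tested structural gene, and of the constitutive and inducible catalytic and PA28 genes, in treated against untreated cells (x axis; points are edgeR estimates, bars 95% intervals, n = 3 libraries per group). Filled points passed an adjusted p of 0.05: PSMA4 and PSMA5 among the structural genes at 1.37 and 0.84, and the 4 inducible genes between 1.58 and 3.93.

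Genes around the particle were taken from lists that were also chosen with results known. Of 14 genes for proteasome gene regulation by NFE2L1, 13 were tested and 2 rose (15.4%, against 5.58% of all genes higher). NFE2L1 itself was at 62.8, 55.1 and 69.5 CPM without and 118, 91.4 and 115 CPM with the cytokines, without overlap. It rose by 0.79 on the log2 scale (SE 0.19, edgeR adjusted p 0.0331). That call was lost with library totals (adjusted p 0.0580) and without untreated library 1 or 2 or treated library 1 or 3 (0.0960 to 0.174). MAFF, a small MAF protein of the kind that pairs with NFE2L1, was at 8.38, 4.65 and 3.64 CPM without and 37.8, 29.3 and 50.8 CPM with cytokines. MAFF was higher in every treated library and rose by 2.82 on the log2 scale (SE 0.36, edgeR adjusted p 0.00133).

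None of the 16 tested genes for proteasome-associated and shuttle factors passed (8.14% of all genes did), with a median log2 fold change of 0.05. Of 14 genes for ubiquitin, activating (E1) enzymes and conjugating enzymes, 1 rose. That was 7.14%, against 5.58% of all genes higher and 8.14% called either way, so the share was near the background. The gene that rose was UBE2L6, the conjugating enzyme of the ubiquitin-like protein ISG15. UBE2L6 was at 67.0, 67.0 and 91.3 CPM without and 1270.4, 1051 and 1118 CPM with cytokines, far apart, and rose by 3.93 in log2 (SE 0.21, edgeR adjusted p 6.44e-06).

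Replicates within a group did not agree on the structural genes, and the disagreement went with base composition. Untreated library 3 was the lowest untreated library for 25 of the 37 tested members and the highest for 12. Its log2 difference from the mean of untreated libraries 1 and 2 had a Pearson r of -0.74 with the GC content of the transcript over the 37 members, and of -0.52 over 10022 genes. Among the members that were high in that library were PSMC6 at 1.18 (38.8% GC), PSMD14 at 0.91 (32.0% GC) and PSMA3 at 0.80 (36.7% GC). Among those that were low were ADRM1 at -1.05 (64.2% GC) and PSMG3 at -1.27 (58.8% GC).

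Treated library 2 against treated library 1 showed the same kind of slope, with r = -0.74 over the members and -0.66 over all genes. The members share their libraries, and these coefficients describe the libraries. The fold change between the groups had r = -0.27 with GC content over the 37 members and 0.02 over all genes. PSMA4 and POMP, at 42.1% and 34.6% GC, were 0.62 and 0.41 higher in untreated library 3 than in the other untreated libraries, and 1.04 and 0.70 higher in treated library 2 than in treated library 1. PSMA5, at 37.2% GC, went the other way in untreated library 3, at -0.61. The part of base composition in the group differences was not tested beyond the offsets for GC content and length. Under those offsets 3 members rose (PSMA4, POMP and PSMB3) and PSMA5 did not pass. Those 3 were 8.11% of the members, where that fit called 12.8% of all genes and 6.89% as higher.

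**Figure D4:**
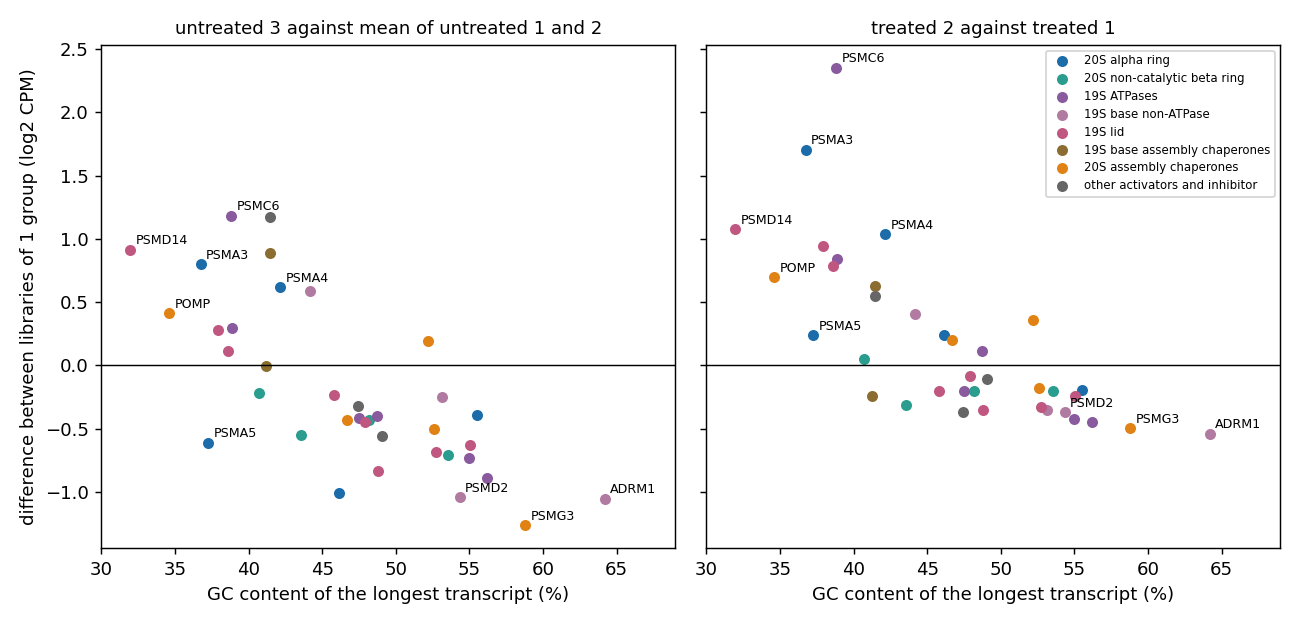
Difference in log2 CPM between libraries of the same group (y axis) against GC content of each gene's longest transcript in percent (x axis), 1 point per tested structural gene: untreated library 3 against the mean of untreated 1 and 2 (left), treated library 2 against treated 1 (right). In both panels the points fall from upper left to lower right, with r = -0.74 in each over 37 genes.

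The calls among the members were near the threshold, so the number that passed moved with the analysis. When every gene with a count was tested, 5 of the 39 members with a count rose (PSMA3, PSMA4, PSMA5, PSMB3 and POMP), against 4.43% of 19158 genes. With library totals PSMA5 alone rose, and with 1 surrogate variable 7 members did (PSMA3, PSMA4, PSMA5, PSMB3, PSMD14, POMP and PSMF1). Those 7 were 18.9% of the members, where that fit called 16.5% of all genes and 9.79% as higher. Without untreated library 2, treated library 2 or treated library 3 none passed by edgeR's quasi-likelihood test. Over all genes the calls were 562 higher and 257 lower, 485 and 364 with library totals, and 694 and 596 with the GC and length offsets. No member passed as lower under any of the 15 alternatives, and the estimates of PSMA4, PSMA5, POMP and PSMB3 were positive in all of them.

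**Figure D5:**
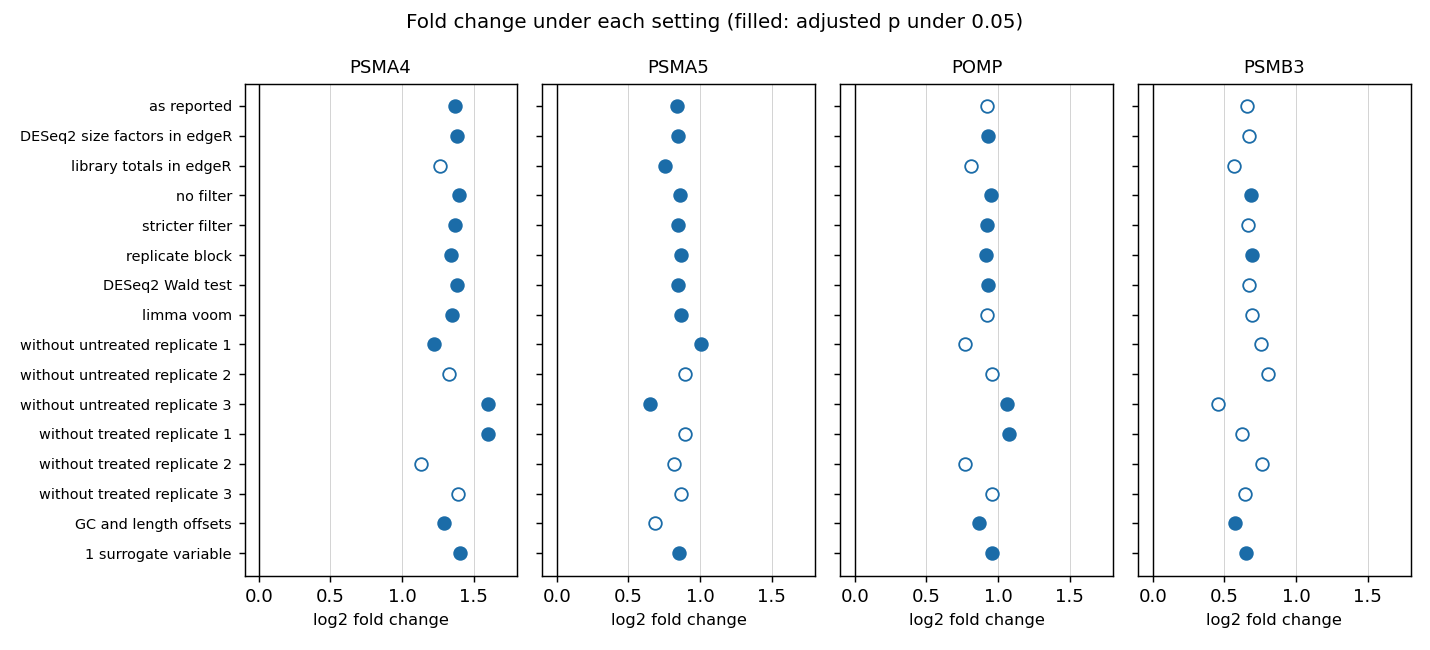
Log2 fold change of PSMA4, PSMA5, POMP and PSMB3 (x axis) as reported and under each of the 15 alternatives (y axis), filled where the adjusted p was under 0.05. PSMA4 passed under 11 alternatives, PSMA5 under 10, POMP under 9 and PSMB3 under 4, and all estimates lie to the right of 0.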

How the data were processed

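Poly(A) RNA of RCC4 cells was sequenced as native RNA in 3 untreated and 3 cytokine-treated libraries. The authors deposited counts of reads for each gene, obtained with featureCounts 2.0.1 in long-read, strand-specific mode on exons of an Ensembl annotation, per the file headers. The submitters' processing notes list minimap2 2.24, SAMtools 1.16 and featureCounts 2.0.0 and the build hg38. Neither multi-mapping reads nor reads touching several genes were set to be counted, per the file headers. Alignment names in the headers carry the word dmso, and groups were taken from the sample titles.

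Counts were tested with edgeR 4.0.16 in R 4.3.3 (quasi-likelihood F test, TMM normalisation, filterByExpr, group as the sole term), with Benjamini-Hochberg adjustment over 10067 genes and a threshold of 0.05. CPM values use TMM-normalised library sizes. Library totals differed by a ratio of 1.22. Between replicates, chi-square divided by its degrees of freedom was 3.79 to 27.7, above counting noise. Deviations of same-numbered libraries of the 2 groups correlated at 0.65, -0.0037 and 0.37, which does not settle whether the numbers are pairs. The labels do not state a pairing, so the main test was unpaired.

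The members, lists and tests were chosen with earlier results of these data known. Values per library are given for members that passed, members with an unadjusted p under 0.05, the 5 largest changes each way and the 5 highest levels, 16 in all; others printed per library were chosen after their values were seen. Alternatives were DESeq2 1.42.0 size factors, library totals, no filter, a stricter filter, the replicate number as a block, the DESeq2 Wald test, limma 3.58.1 voom and leaving out each library. A fit with 1 surrogate variable (sva 3.50.0) and a fit with offsets for GC content and exon length were added once the data had been seen. Tests were checked on simulated counts. Copy identity used GENCODE 29 transcripts on GRCh38. Exon sharing used the exons of the counting annotation, with principal transcripts taken from GENCODE 29. The result of 1 further motif is not reported here.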

Additional observations from a re-analysis of the deposited data

How the results depend on the processing

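The count of structural genes that rose, 2 as reported, was 1 with library totals and 5 without a filter. It was 5 with the replicate block and 7 with 1 surrogate variable, and ran from 0 to 3 when 1 library was left out. With library totals 2.70% of the members rose, against 4.82% of all genes. The shares were 12.8% against 4.43% without a filter, 13.5% against 9.01% with the block and 18.9% against 9.79% with 1 surrogate variable. When 1 library was left out, 3.42% to 7.16% of all genes rose. The median log2 fold change of the members, 0.11 as reported, ran from 0.13 to 0.26 over those fits without 1 library and was 0.018 with library totals and 0.052 with the GC and length offsets. The direction of 4 named members reversed under some alternatives, and the cause was not tested. PSMA7 was at 0.0086 with DESeq2 size factors, 0.023 without a filter, 0.0016 with the stricter filter, 0.0059 with the replicate block, 0.0086 with the DESeq2 Wald test and 0.0067 with limma voom, and between -0.13 and 0.093 without 1 library. PSMC6 was at 0.018 with 1 surrogate variable and between -0.73 and 0.42 without 1 library, PSMG3 between -0.48 and 0.069 without 1 library, and PSMB1 at -0.031 with the GC and length offsets. Over all genes the calls, 819 as reported, were 1328 without a filter, 1513 with the replicate block, 1290 with the GC and length offsets and 1662 with 1 surrogate variable, and from 455 to 1178 without 1 library. In the block fit PSMA4, PSMA5, POMP, PSMB2 and PSMB3 passed. By deviations from the group means, untreated library 1 correlated best with treated library 1 (0.65) and untreated library 2 with treated library 1 (0.25). Untreated library 3 correlated best with treated library 2 (0.41), so 1 of the 3 untreated libraries correlated best with its own number. From the treated side, library 1 correlated best with untreated library 1 (0.65). Treated libraries 2 and 3 both did so with untreated library 3 (0.41 and 0.37). Whether the numbers are pairs was not settled. Members with few counts (PSMA1, PSMC1, PSMC6, PSME4) have standard errors of 0.28 to 0.62 on the log2 scale. The error did not follow the counts alone: PSMC6, with 503 counts, had 0.62 and PSMC1, with 242, had 0.28.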
